A study of Homo sapiens with 2 samples.

Results

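Peaks of RUNX2 and of MTA1 were examined at the proteasome genes, taken as the protein-coding genes whose symbols start with PSMA, PSMB, PSMC, PSMD, PSME, PSMF or PSMG followed by a digit. The immunoproteasome genes PSMB8 and PSMB9 were left out by this rule. It took 48 of the 20037 protein-coding genes of the RefSeq annotation of GRCh38.p14 on chromosomes 1 to 22, X and Y, by their symbols and not by their values in these lists, although earlier results of these data were known when the rule was chosen. By subunit class these were 8 alpha ring genes, 9 beta ring genes, 6 ATPase genes and 11 non-ATPase genes of the regulatory particle, 3 genes for chaperones that build the regulatory particle, 5 genes for activators or inhibitors and 4 genes for chaperones that build the core. The letters also took in PSMC3IP and PSME3IP1, which are named for a protein partner and encode no subunit.

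The series holds 2 CUT&Tag libraries from untreated cells of the human line MDA-MB-231, which comes from a triple-negative breast cancer, and asks which genes are targets of RUNX2 and MTA1. RUNX2 is a transcription factor of bone development, and MTA1 is a subunit of the NuRD complex, which remodels and deacetylates chromatin. In CUT&Tag an antibody directs a transposase to chromatin, so that DNA near the antibody's target is tagged and sequenced. The labels also describe a ligation protocol with end repair, which is not usual for CUT&Tag, so how the libraries were made is uncertain. One library was made with an antibody against RUNX2 and 1 with an antibody against MTA1, with no replicate of either and no control library analysed here, so that every difference between the lists is a difference between 2 libraries and the antibody cannot be told apart from the library.

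The RUNX2 list held 61717 peaks, with a median score of 6.70, and the MTA1 list held 42698 peaks, with a median score of 7.58. The score is the authors' own and its scale was not stated, so it was read as a rank, given as the percentage of peaks in the same list that score lower, and scores were not compared between the lists. The depth of the libraries is unknown, since the lists hold no reads, and a gene without a listed peak may carry a signal below the threshold of its list. The submitters' processing notes name hg19, but the listed positions met gene ends of GRCh38.p14. At the listed positions 35 of the 48 proteasome genes had a RUNX2 peak and 43 had an MTA1 peak within 1 kb of an end, and after a move of the peaks by 100 kb in either direction 5 and 9 genes had a RUNX2 peak and 7 and 8 had an MTA1 peak. The counts after the move were 10.4% and 18.8% in RUNX2 and 14.6% and 16.7% in MTA1. Over all protein-coding genes the move left 13.8% and 13.6% in RUNX2, from 49.9%, and 10.5% each way in MTA1, from 50.9%.

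The proteasome degrades proteins that carry ubiquitin. Its core, the 20S particle, is a barrel of alpha and beta rings whose beta rings hold the proteolytic sites, and the 19S regulatory particle at its ends recognises ubiquitin, unfolds the substrate with a ring of ATPases and feeds it into the barrel. The subunits are made in nearly all cells, and the factor NFE2L1 raises their transcription together when proteasome activity falls, through antioxidant response elements in their promoters.

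Proteasome genes had peaks of both libraries more often than protein-coding genes at large. A RUNX2 peak was found within 1 kb of an end at 35 of 48 genes, or 72.9% (exact 95% binomial interval 58.2% to 84.7%), against 49.9% of all protein-coding genes. MTA1 peaks lay at 43 of 48, or 89.6% (77.3% to 96.5%), against 50.9%. Both were found at 34 of 48, or 70.8% (55.9% to 83.1%), against 43.9%, and neither at 4 of 48, or 8.33%, against 43.1%. The intervals cover counting error over genes only, and no test was made because genes are not replicates of a library.

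The other families of genes that every cell uses had shares of the same order. Cytosolic ribosomal protein genes had a RUNX2 peak in 91.8% of 85 and an MTA1 peak in 97.6% of 85, both above the proteasome genes. Mitochondrial ribosomal protein genes had a RUNX2 peak in 76.6% of 77 and an MTA1 peak in 79.2% of 77, the first above and the second below the proteasome genes. Whether the shares differ between the families was not tested.

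**Figure D1:**
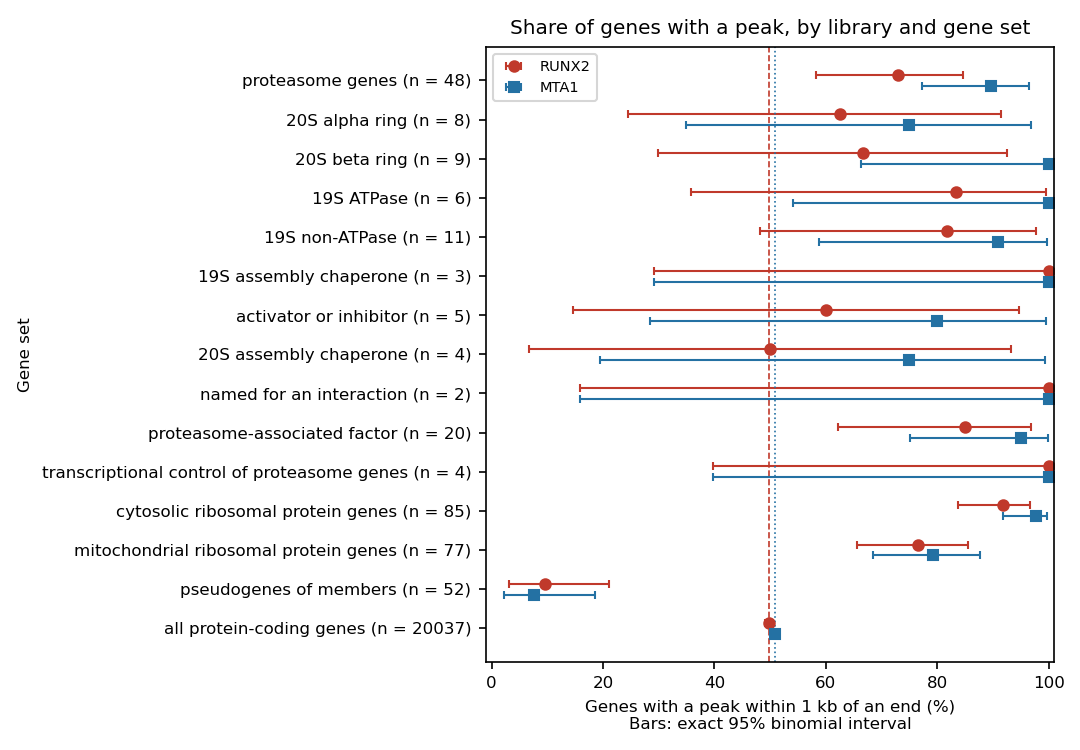
Share of genes with a peak within 1 kb of an end, in percent, for the proteasome genes, their classes and other gene sets, with RUNX2 as circles, MTA1 as squares and bars for the exact 95% binomial interval; dashed and dotted lines mark all protein-coding genes for RUNX2 and MTA1. The proteasome genes sit at 72.9% and 89.6%, between all protein-coding genes at 49.9% and 50.9% and the cytosolic ribosomal protein genes at 91.8% and 97.6%.

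The peaks at proteasome genes were of middling strength for peaks at genes. The strongest peak of each gene scored above 75.4% of RUNX2 peaks and 78.8% of MTA1 peaks in the median, where the strongest peaks of all protein-coding genes with a peak scored above 71.3% and 75.2%. Ranked only among protein-coding genes with a peak in the same list, the median proteasome gene with a peak stood above 56.1% of genes in RUNX2 and above 54.7% in MTA1. From the first to the third quartile the proteasome genes ran from 19.8% to 83.4% of genes in RUNX2 and from 38.4% to 81.1% in MTA1, so that a peak was common to most of them while its strength ranged widely. The strongest peak had the narrowest width of its list at PSMB7 and PSMD7 in RUNX2 and at PSMA4, PSME4 and PSMG2 in MTA1.

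**Figure D2:**
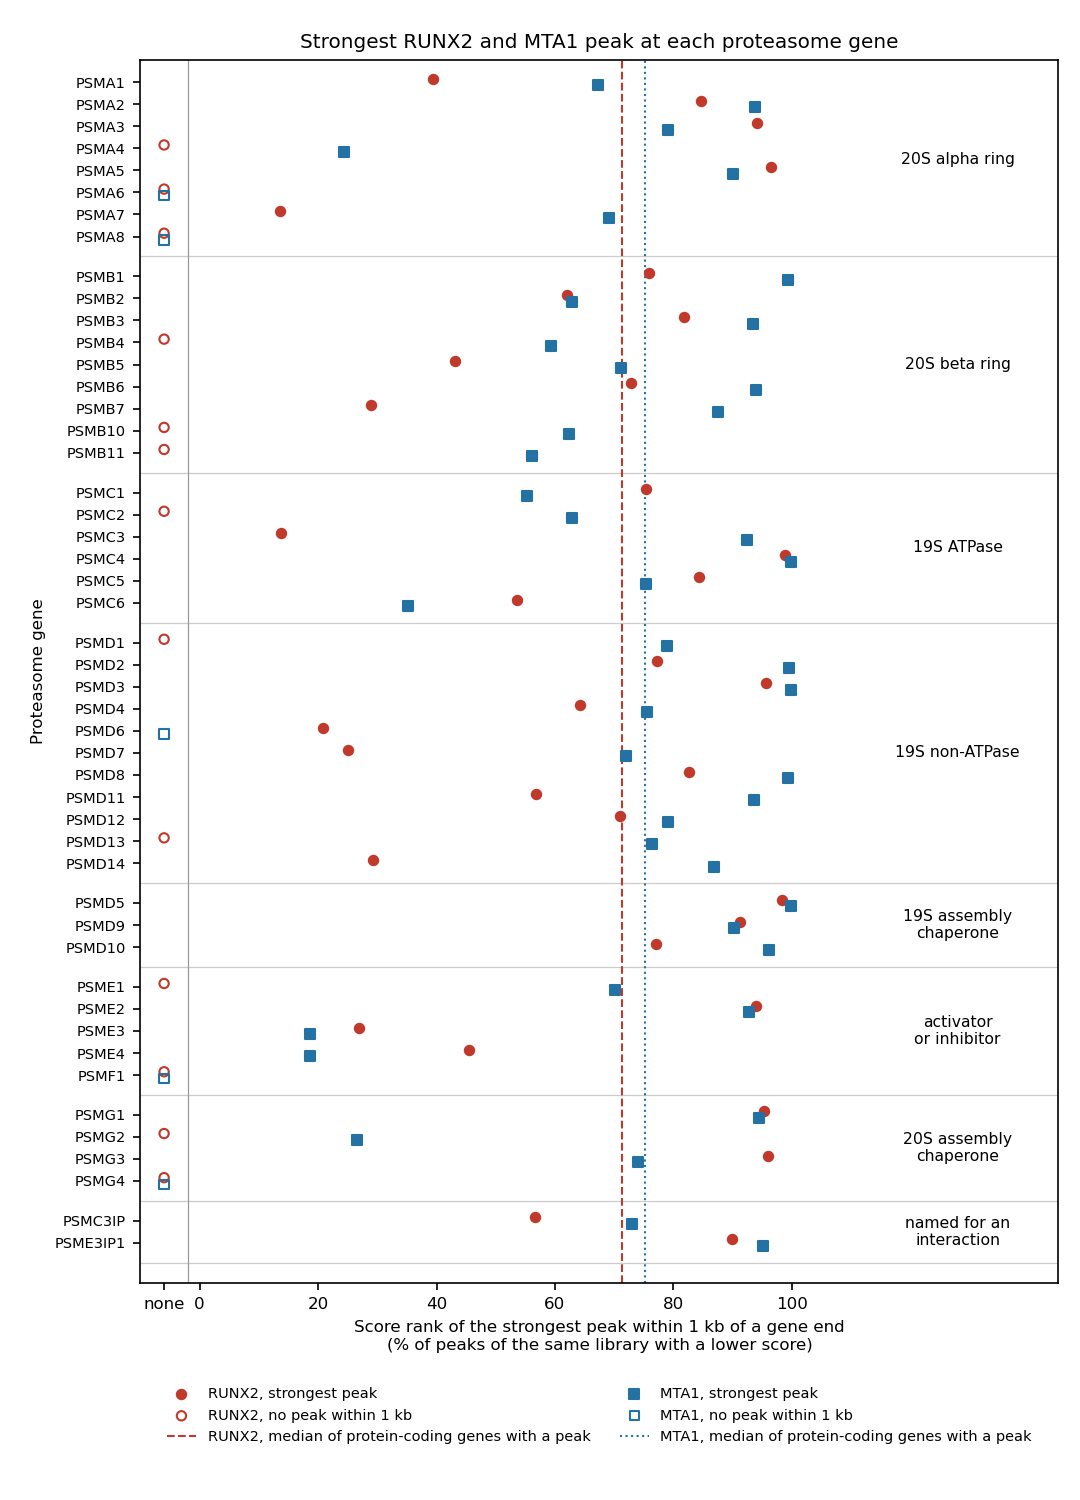
Percentage of peaks in the same list that score lower than the strongest peak within 1 kb of an end, for each of the 48 proteasome genes by class, with RUNX2 as circles and MTA1 as squares and open markers at the left edge for genes with no listed peak; the dashed and dotted lines mark the medians of all protein-coding genes with a peak in RUNX2 and MTA1. PSMC4 and PSMD5 stand furthest right in both libraries, PSMC3 has the widest gap between its markers, and PSMA6, PSMA8, PSMF1 and PSMG4 have no peak in either.

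The 19S ATPase genes encode the ring that unfolds substrates, and all 6 had an MTA1 peak and 5 of 6 a RUNX2 peak. PSMC4 had the strongest peak of any proteasome gene in both libraries. Its RUNX2 peak at chr19:39970874-39971209 scored 52.1, above 98.8% of RUNX2 peaks, and its MTA1 peak at chr19:39970859-39971229 scored 68.9, above 99.9% of MTA1 peaks. The peaks overlapped, centred just upstream of the start at -124 and -121 bp. PSMC5 scored 17.4 in RUNX2, above 84.2% of peaks, and 13.1 in MTA1, above 75.3%. PSMC1 scored 12.3 in RUNX2 and 8.36 in MTA1, above 75.4% and 55.3% of peaks. PSMC3 was the opposite case to PSMC4, with a RUNX2 score of 4.32, above 13.7% of peaks, beside an MTA1 score of 25.0, above 92.5%. PSMC6 was low in both, at 6.88 and 5.92. PSMC2 had an MTA1 peak of 9.67, above 62.9% of peaks, and no RUNX2 peak. The promoter of PSMC4 is shown as the best-ranked of its class in RUNX2, and each other class has its best-ranked gene with a listed promoter shown. Each is the RefSeq GRCh38.p14 sequence from 250 bases before to 50 bases after the listed start, 5′ to 3′ on the strand of the gene, with the RUNX cores TGTGGT and TGCGGT and the antioxidant response element core TGACNNNGC, on either strand, in capitals. PSMC4 lies on the plus strand at chr19:39970915-39971214, and its capitals mark an antioxidant response element core near the start, read on the other strand.
PSMC4: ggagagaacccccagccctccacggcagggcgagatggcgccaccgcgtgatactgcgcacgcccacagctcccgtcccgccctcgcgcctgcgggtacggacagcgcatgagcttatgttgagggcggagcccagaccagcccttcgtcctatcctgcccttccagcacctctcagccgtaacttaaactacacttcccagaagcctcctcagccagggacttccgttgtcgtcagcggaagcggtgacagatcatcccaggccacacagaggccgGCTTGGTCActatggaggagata

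The non-ATPase genes of the 19S particle encode its scaffold, its ubiquitin receptors and its deubiquitinase, and 9 of 11 had a RUNX2 peak and 10 of 11 an MTA1 peak. The scaffold genes PSMD2, PSMD3 and PSMD8 led this class, and each ranked higher in MTA1 than in RUNX2. PSMD3 scored 34.7 in RUNX2, above 95.7% of peaks, and 60.4 in MTA1, above 99.8%. PSMD8 scored 16.3 and 49.7, above 82.7% and 99.3% of peaks. PSMD2, whose product is among the largest of the complex, scored 13.1 and 54.1, above 77.2% and 99.6%. PSMD1 itself had an MTA1 peak of 14.6, above 78.8% of peaks, but no RUNX2 peak at an end. PSMD14, the deubiquitinase that strips ubiquitin from the substrate, scored 5.22 in RUNX2, above 29.3% of peaks, and 19.3 in MTA1, above 86.9%. PSMD4, a ubiquitin receptor, scored 8.82 and 13.2, above 64.2% and 75.6%. PSMD13 had an MTA1 peak of 13.6 and none of RUNX2. PSMD6 was the only proteasome gene with a RUNX2 peak and no MTA1 peak, and that RUNX2 peak scored 4.73, above 20.8% of peaks. The other genes of the class, PSMD7, PSMD11 and PSMD12, had peaks of both, with RUNX2 scores of 4.97 to 10.6 and MTA1 scores of 12.0 to 26.6. Across the class the median rank among genes was 40.0% in RUNX2 and 61.2% in MTA1. The promoter of PSMD3, at chr17:39980557-39980856 on the plus strand, holds a core of the antioxidant response element on each strand.
PSMD3: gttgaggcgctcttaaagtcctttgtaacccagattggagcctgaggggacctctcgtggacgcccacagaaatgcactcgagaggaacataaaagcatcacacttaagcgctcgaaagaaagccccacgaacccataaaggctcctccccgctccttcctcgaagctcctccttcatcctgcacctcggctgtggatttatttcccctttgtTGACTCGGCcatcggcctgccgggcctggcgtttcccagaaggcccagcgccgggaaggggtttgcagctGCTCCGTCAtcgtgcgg

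The chaperones that assemble the 19S particle, encoded by PSMD5, PSMD9 and PSMD10, leave the finished complex, and all 3 genes had peaks of both libraries. PSMD5 had the second strongest peak of the proteasome genes in each library. It scored 48.7 in RUNX2 at chr9:120842902-120843237, above 98.4% of peaks, and 62.0 in MTA1 at chr9:120842884-120843470, above 99.8%. PSMD9 scored 25.1 and 22.4, above 91.2% and 90.3% of peaks. PSMD10, which encodes the oncoprotein gankyrin, scored 13.0 and 32.1, above 77.1% and 96.1% of peaks. With a median rank among genes of 84.8% in RUNX2 and 87.5% in MTA1, these 3 genes stood above the median of the proteasome genes with a peak in each list. The promoter of PSMD5, at chr9:120842873-120843172 on the minus strand, holds 1 antioxidant response element core.
PSMD5: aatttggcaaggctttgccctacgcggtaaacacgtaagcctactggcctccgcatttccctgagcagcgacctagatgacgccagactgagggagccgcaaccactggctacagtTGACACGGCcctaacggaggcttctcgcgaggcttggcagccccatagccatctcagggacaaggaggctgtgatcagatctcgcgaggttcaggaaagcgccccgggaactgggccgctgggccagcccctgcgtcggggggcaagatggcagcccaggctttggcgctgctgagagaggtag

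The alpha ring genes encode the gate through which substrates enter the core, and 5 of 8 had a RUNX2 peak and 6 of 8 an MTA1 peak. PSMA5 led the class in RUNX2, with a score of 37.8 above 96.5% of peaks, and scored 22.2 in MTA1, above 90.1%. PSMA2 scored 17.7 and 27.0, above 84.6% and 93.8% of peaks, with its MTA1 rank the highest of the class. PSMA3 scored 30.5 in RUNX2, above 94.2% of peaks, and 14.7 in MTA1, above 79.0%. PSMA7 had the lowest RUNX2 rank of any proteasome gene with a peak, at a score of 4.26 above 13.5% of peaks, while its MTA1 peak scored 11.1, above 69.2%. PSMA1 scored 5.26 and 10.6 at its ends, above 39.4% and 67.2% of peaks. PSMA4 had an MTA1 peak of 5.53, above 24.4% of peaks, and no RUNX2 peak. PSMA6 and PSMA8 had neither. PSMA8 encodes an alpha subunit of germ cells. The promoter of PSMA5, at chr1:109426399-109426698 on the minus strand, holds none of the letters marked.
PSMA5: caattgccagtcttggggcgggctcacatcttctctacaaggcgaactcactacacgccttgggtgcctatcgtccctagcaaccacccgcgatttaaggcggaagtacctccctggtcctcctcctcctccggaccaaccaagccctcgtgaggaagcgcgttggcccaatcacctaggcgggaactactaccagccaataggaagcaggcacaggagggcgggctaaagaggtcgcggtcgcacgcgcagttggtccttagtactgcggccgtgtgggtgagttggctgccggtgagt

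The beta ring genes encode the catalytic subunits and their neighbours, and all 9 had an MTA1 peak and 6 of 9 a RUNX2 peak. The catalytic genes PSMB5, PSMB6 and PSMB7, of which PSMB5 encodes the target of bortezomib, had peaks of both. PSMB6 scored 11.3 in RUNX2 and 27.4 in MTA1, above 72.8% and 94.0% of peaks. PSMB7 scored 5.18 and 19.9, above 29.0% and 87.6%, and PSMB5 scored 5.87 and 11.7, above 43.2% and 71.2%. All 3 ranked higher in MTA1. Among the structural subunits PSMB3 was the best-ranked in RUNX2, with a score of 15.7 above 81.8% of peaks, and scored 26.4 in MTA1, above 93.5%. PSMB1 scored 12.5 and 51.5, above 75.8% and 99.4% of peaks, with peaks that lay nearer to the neighbouring gene TBP. PSMB2 scored 8.53 and 9.67, and was the only gene of the 34 with both with no RUNX2 peak at its ends that overlapped an MTA1 peak there. The RUNX2 peak of PSMB2 was centred at -630 bp from the start and the MTA1 peak at -21 bp. PSMB4, the inducible subunit gene PSMB10 and the thymus subunit gene PSMB11 had an MTA1 peak and no RUNX2 peak, with MTA1 scores of 9.06, 9.55 and 8.49. The peak of PSMB10 lay at the limit of the window, 981 bp from the nearest end and centred 1057 bp downstream of the start. The promoter of PSMB3, at chr17:38752491-38752790 on the plus strand, holds an antioxidant response element core.
PSMB3: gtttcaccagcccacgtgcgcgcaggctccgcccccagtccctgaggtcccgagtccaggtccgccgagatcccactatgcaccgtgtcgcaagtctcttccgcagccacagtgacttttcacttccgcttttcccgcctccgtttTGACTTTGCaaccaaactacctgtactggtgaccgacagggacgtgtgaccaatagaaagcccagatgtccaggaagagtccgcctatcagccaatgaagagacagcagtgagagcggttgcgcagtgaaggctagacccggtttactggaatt

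The genes for activators and inhibitors, which cap the core in place of the 19S particle or block it, had a RUNX2 peak in 3 of 5 and an MTA1 peak in 4 of 5. PSME2, one of the interferon-inducible pair with PSME1, scored 30.0 in RUNX2 and 25.5 in MTA1, above 94.0% and 92.8% of peaks. PSME1 had an MTA1 peak of 11.4, above 70.1% of peaks, and no RUNX2 peak. PSME3, which encodes a nuclear activator, and PSME4, which encodes an activator that binds acetylated histones, shared the lowest MTA1 score of the proteasome genes with a peak, 5.03, above 18.7% of peaks. Their RUNX2 scores were 5.10 and 6.12, above 27.0% and 45.4% of peaks. PSMF1, which encodes the inhibitor, had no peak of either library at an end. The promoter of PSME2, at chr14:24146561-24146860 on the minus strand, holds an antioxidant response element core.
PSME2: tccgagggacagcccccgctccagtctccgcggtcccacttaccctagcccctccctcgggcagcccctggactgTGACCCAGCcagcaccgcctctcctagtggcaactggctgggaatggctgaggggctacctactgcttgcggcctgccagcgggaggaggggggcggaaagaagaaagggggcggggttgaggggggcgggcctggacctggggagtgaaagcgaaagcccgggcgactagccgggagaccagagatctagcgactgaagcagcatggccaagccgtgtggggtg

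The chaperones that assemble the 20S core are encoded by PSMG1, PSMG2, PSMG3 and PSMG4, of which 2 of 4 had a RUNX2 peak and 3 of 4 an MTA1 peak. PSMG3 scored 35.8 in RUNX2, above 96.0% of peaks, and 12.6 in MTA1, above 74.1%. These peaks lay 741 and 755 bp from the nearest end of PSMG3, and the antisense locus PSMG3-AS1 had peaks of the same scores. PSMG1 scored 33.4 and 28.3, above 95.2% and 94.4% of peaks. PSMG2 had only an MTA1 peak at an end, of 5.54, above 26.5% of peaks, and PSMG4 had none. The promoter of PSMG1, at chr21:39183402-39183701 on the minus strand, is the only printed one with a RUNX core, near its start. It stands in for PSMG3, which ranked higher in RUNX2 and has no entry, and it holds an antioxidant response element core further upstream.
PSMG1: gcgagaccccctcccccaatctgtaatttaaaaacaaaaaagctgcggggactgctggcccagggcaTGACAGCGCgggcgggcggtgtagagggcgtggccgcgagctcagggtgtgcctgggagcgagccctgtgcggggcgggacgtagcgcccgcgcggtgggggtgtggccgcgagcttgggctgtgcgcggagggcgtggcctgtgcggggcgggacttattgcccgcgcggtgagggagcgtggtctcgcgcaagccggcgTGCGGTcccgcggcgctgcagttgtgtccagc

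The genes taken in by their letters alone both had peaks of both libraries. PSME3IP1, named for its partner PSME3, scored 23.1 in RUNX2 and 29.6 in MTA1, above 89.8% and 95.1% of peaks. PSMC3IP, which acts in meiotic recombination, scored 7.44 and 12.3, above 56.6% and 73.0% of peaks. Without them the shares were 71.7% of 46 genes in RUNX2 and 89.1% in MTA1. The promoter of PSME3IP1, at chr16:57186067-57186366 on the minus strand, holds none of the letters marked.
PSME3IP1: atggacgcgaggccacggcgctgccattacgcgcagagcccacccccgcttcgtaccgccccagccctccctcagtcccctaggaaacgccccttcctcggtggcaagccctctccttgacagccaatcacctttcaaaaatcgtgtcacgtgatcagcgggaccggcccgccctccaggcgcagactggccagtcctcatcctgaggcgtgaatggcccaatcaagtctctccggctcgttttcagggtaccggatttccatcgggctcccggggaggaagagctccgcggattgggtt

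Peaks of 1 library only were mostly of MTA1. An MTA1 peak without a RUNX2 peak was found at 9 of 48 genes, or 18.8%, against 7.07% of all protein-coding genes, namely PSMA4, PSMB4, PSMB10, PSMB11, PSMC2, PSMD1, PSMD13, PSME1 and PSMG2. A RUNX2 peak without an MTA1 peak was found at 1 of 48, PSMD6, or 2.08%, against 5.99%. Of the proteasome genes with an MTA1 peak 79.1% also had a RUNX2 peak, against 86.1% of all protein-coding genes, and of those with a RUNX2 peak 97.1% also had an MTA1 peak, against 88.0%. Where both were present they lay at the same place. Any of the peaks at an end overlapped by at least 1 bp at 33 of 34 proteasome genes, or 97.1%, a share near the 95.4% of all protein-coding genes with both. The strongest peaks of the libraries overlapped at 32 of 34, or 94.1%, against 87.7% of all protein-coding genes with both. The exceptions were PSMB2 and PSMC3IP.

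Ranked among the protein-coding genes with a peak in each list, 22 of the 34 proteasome genes with both stood higher in MTA1 than in RUNX2, or 64.7%, against 52.8% of the 8791 protein-coding genes with both. PSMC3 had the largest difference, standing above 4.50% of genes in RUNX2 and 78.3% in MTA1, or 73.8 percentage points apart. PSMB7 and PSMD14 followed, with differences of 56.6 and 55.2 points toward MTA1. In the other direction PSMG3 differed by -45.8 points and PSMA3 by -35.9 points. Across the 34 genes the ranks in the 2 libraries had a Spearman correlation of 0.603, against 0.641 across the 8791, given as a description because the genes share libraries and are not independent replicates. PSMC4, PSMD3, PSMD5, PSME2, PSMG1 and PSME3IP1 stood above 75% of genes in both, 6 of 34 or 17.6%, the share of all protein-coding genes with both.

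**Figure D3:**
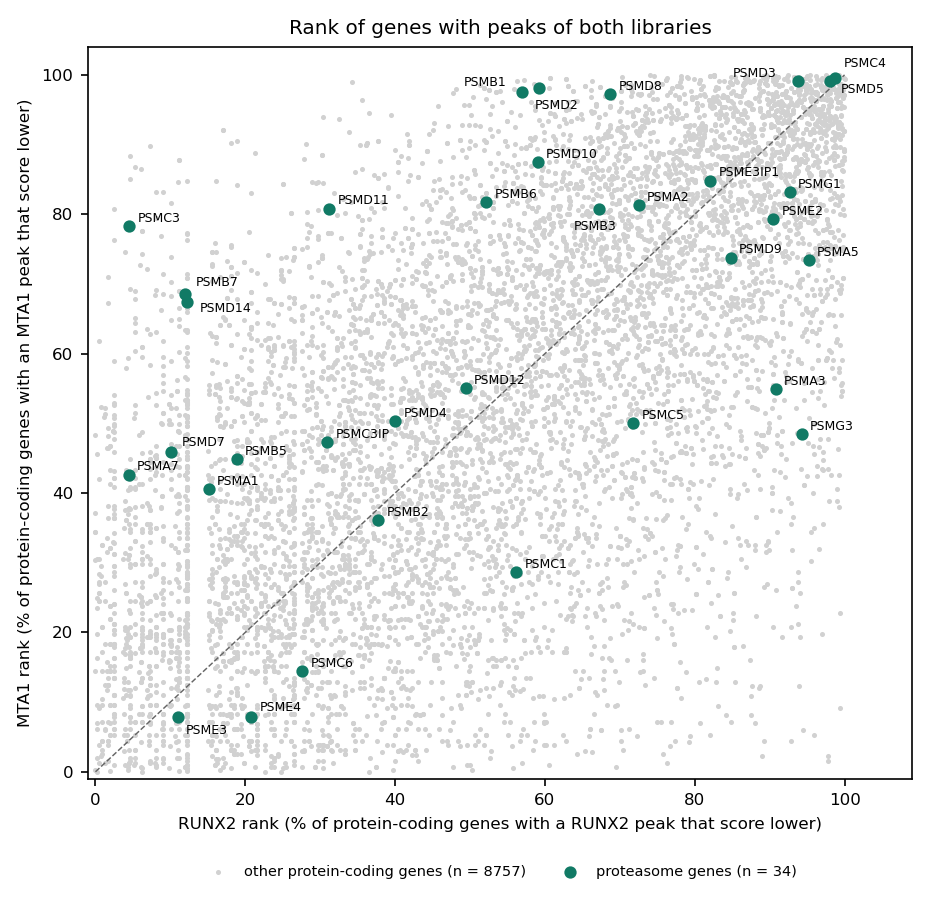
Rank of the strongest peak in RUNX2 (x axis) and MTA1 (y axis), each as the percentage of protein-coding genes with a peak in that list that score lower, for the 34 proteasome genes with both (large labelled points) and the other protein-coding genes with both (small grey points); the dashed line marks equal ranks. PSMC4 and PSMD5 lie at the upper right in both, PSMC3 at 4.50% and 78.3% far above the line, and PSMG3 the furthest below it.

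The peaks lay at the starts of the genes and seldom at their far ends. Starts were listed for 42 of the 48 genes, and PSMA7, PSMB1, PSMB6, PSMB7, PSMD4 and PSMG3 have no entry. A RUNX2 peak lay within 1 kb of a start in 33 of 42, or 78.6% (63.2% to 89.7%), against 52.1% of the 15843 protein-coding genes with a listed start, and an MTA1 peak in 40 of 42, or 95.2% (83.8% to 99.4%), against 53.9%. The genes with a listed start and no MTA1 peak there were PSMA8 and PSMD6. Far ends carried a peak in 3 of 42 genes in each library, or 7.14%, where 8.13% of all had one in RUNX2 and 6.76% in MTA1. The strongest peak at a start was centred upstream, at a median of -99.5 bp from the start in RUNX2 and -69 bp in MTA1, and medians over all genes were -87.5 and -85 bp. Peaks centred within 300 bp of the start made up 30 of 33 in RUNX2, or 90.9%, against 79.1%, and 37 of 40 in MTA1, or 92.5%, against 83.3%.

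**Figure D4:**
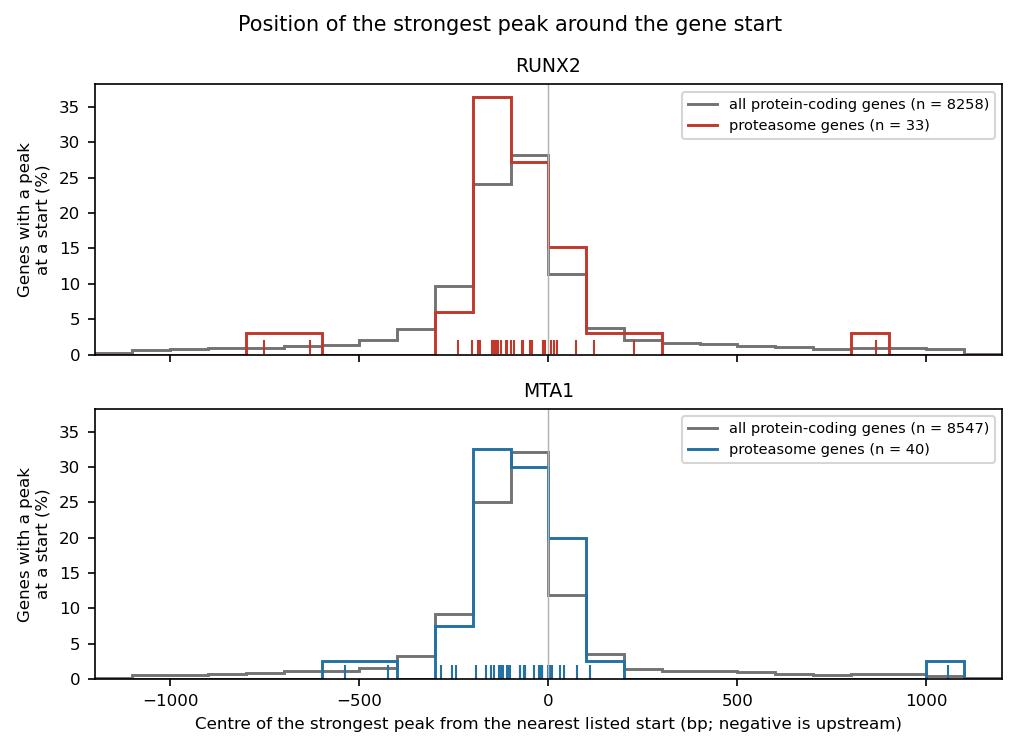
Distance from the nearest listed start to the centre of the strongest peak at a start, in bp along the gene (negative values upstream), as the percentage of genes with a peak at a start in bins of 100 bp, for the proteasome genes (coloured, with a tick for each gene) and all protein-coding genes (grey) in each library. In both libraries the proteasome genes gather just upstream of the start, with 30 of 33 RUNX2 and 37 of 40 MTA1 peaks centred within 300 bp.

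Of the 4 genes with no peak at an end, 3 had peaks at a start that lies within the span of the gene. PSMA6 has a start 13.8 kb inside its span, with a RUNX2 peak of 6.40, above 47.6% of peaks, and an MTA1 peak of 21.4, above 89.3%. PSMG4 has one 4.54 kb inside, with peaks of 5.26 and 10.7, above 39.4% and 67.5% of peaks. The second listed start of PSMF1, with 28 CpG dinucleotides in its 300 bases where the outer start has 4, had peaks of 8.01 and 11.8, above 59.4% and 71.6% of peaks. PSMG2, which had no RUNX2 peak at an end, had a weak one at its second listed start, of 3.39, above 4.04% of peaks. PSMA1 also has its start far inside its span, by 123.3 kb, and there the peaks were stronger than those at its ends, with scores of 12.0 in RUNX2 and 33.5 in MTA1, above 74.7% and 96.5% of peaks. PSMA8 alone had no peak at an end or at a listed start. The promoter of PSMA8, at chr18:26133619-26133918 on the plus strand, is shown for contrast with those above, and it holds 25 CpG dinucleotides where PSMC4 holds 22.
PSMA8: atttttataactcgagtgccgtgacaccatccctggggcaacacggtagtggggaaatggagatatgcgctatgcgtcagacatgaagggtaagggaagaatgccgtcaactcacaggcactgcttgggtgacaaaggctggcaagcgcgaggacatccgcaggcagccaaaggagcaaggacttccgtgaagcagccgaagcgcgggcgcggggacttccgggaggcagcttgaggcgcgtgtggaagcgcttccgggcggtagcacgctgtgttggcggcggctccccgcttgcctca

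Some peaks could be assigned to a neighbour as well, since some gene ends lie close together. The strongest RUNX2 peak lay within 1 kb of an end of another protein-coding gene at 11 of 35 genes, or 31.4%, and the strongest MTA1 peak at 12 of 43, or 27.9%, near the 30.1% and 31.4% of all genes with a peak. PSMA2 shared its peaks with MRPL32, PSMC5 with FTSJ3, PSMG1 with BRWD1, PSME2 with RNF31, PSME4 with ACYP2, PSMA7 with SS18L1, PSMD9 with HPD and PSME3IP1 with RSPRY1. PSMC3IP shared its RUNX2 peak with RETREG3. PSMC2 and PSMD13 shared their MTA1 peaks with PMPCB and SIRT3. The peaks of PSMB1 were at the end of TBP, the TATA-binding protein gene, and those at the ends of PSMA1 were at PDE3B. The strongest peak lay nearer to another gene at 3 proteasome genes in RUNX2 and at 5 in MTA1. These were PSMA1, PSMB1 and PSME4 in both libraries, and also PSMC2 and PSMD13 in MTA1. The peaks of PSMC4, PSMD5 and PSMD3 lay within 1 kb of no other protein-coding gene.

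Peaks inside the genes, away from the ends, were less frequent than in genes at large. Such peaks were found in 13 of 48 genes in each library, or 27.1%, against 44.8% of protein-coding genes in RUNX2 and 36.5% in MTA1, where the median span was 14.5 kb for proteasome genes and 24.1 kb for all. The part of span in this difference was not tested. The counts include peaks at starts that lie inside the span, such as those of PSMA1, PSMA6, PSMF1 and PSMG4 given above. In MTA1 the start peak was the only inside peak of each of these genes. PSMB7 had an inside peak of 23.8 in RUNX2 and 17.8 in MTA1, above 90.4% and 84.8% of peaks, and the RUNX2 peak there outscored that at its end. In PSMD1, which had no RUNX2 peak at an end, the strongest inside peaks scored 14.9 and 11.7, above 80.6% and 71.2% of peaks.

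The promoters were typical in CpG content, with a median of 22 CpG dinucleotides in 300 bases among the 42 proteasome genes and 22 among all 15843. Counted at the start that gives the CpG content, with 8 to 21 CpG 13 of 15 proteasome genes had a RUNX2 peak and 15 of 15 an MTA1 peak, against 48.4% and 52.5% of all genes. With 22 to 31 CpG the counts were 13 of 18 and 16 of 18, against 69.7% and 73.6%. From 32 CpG on, all 5 proteasome genes had both, against 66.7% and 68.2%. Up to 7 CpG, PSMB10, PSMB11, PSMC2 and PSMF1 had a RUNX2 peak in 0 of 4 and an MTA1 peak in 3 of 4, against 10.7% and 8.89%, and a count of 4 is too small to read a share from.

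The promoters were searched on both strands for 8 motifs, with matches of different motifs free to overlap. RUNX cores, TGTGGT or TGCGGT, were in 7 of 42 proteasome promoters, or 16.7%, against 18.9% of all. The genes were PSMA3, PSMB5, PSMC5, PSMD6, PSMD9, PSMD13 and PSMG1. A RUNX2 peak at a listed start was found at 6 of these 7 and at 27 of the 35 without the letters, against 52.1% of all genes with a listed start. At a gene end the counts were 6 of 7 with the letters and 23 of 35 without. Over all promoters they were 1617 of 2996 with the letters and 6650 of 12847 without. The antioxidant response element core TGACNNNGC was in 12 of 42, or 28.6%, against 14.4% of all, and the ETS core CCGGAAG in 14 of 42, or 33.3%, against 14.2%. The remaining motifs were nearer their shares over all promoters. CCAAT was in 47.6% against 36.4%, the GC box GGGCGG in 66.7% against 58.3%, ATGGCG of YY1 in 16.7% against 14.3%, the motif of nuclear respiratory factor 1 in 11.9% against 8.59%, and TATAAA in 11.9% against 9.75%. A match describes the letters of this window and says nothing of what binds there.

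Proteasome genes with the antioxidant response element core had the higher-ranked peaks, in a split made after the values were seen and given as a description. The letters were read at a listed start, but the ranks came from peaks at gene ends. PSMA1, without the core, was ranked by its end peaks and not by the stronger peaks at its start. PSMA6, PSMF1 and PSMG4, without the core, had peaks at a start but none at an end, and were not ranked. The same held in RUNX2 for PSMG2, which has the core. In RUNX2 the 9 genes with the core and a peak at an end stood above 90.5% of genes in the median and the 20 without the core above 34.5%. Over all protein-coding genes the same medians were 52.7% and 50.6%. In MTA1 the medians were 76.5% of genes for the 12 proteasome genes with the core and 47.3% for the 25 without, and 52.8% and 51.0% over all genes. PSMB3, PSMC4, PSMD3, PSMD5, PSME2 and PSMG1, printed above, hold the core, and PSMA5 and PSME3IP1, which also ranked high, do not. Others with the core ranked low, such as PSME4, above 20.8% of genes in RUNX2 and 7.87% in MTA1, and PSMG2, above 11.5% in MTA1. PSMD1, PSME1 and PSMG2 hold the core and had no RUNX2 peak at an end. ETS letters went the other way in the same split, with medians of 29.3% for 10 proteasome genes with CCGGAAG and 71.8% for 19 without it in RUNX2, and of 47.3% and 64.2% in MTA1. Over all protein-coding genes the ETS medians were 52.55% with the letters and 50.5% without in RUNX2, and 57.6% and 49.6% in MTA1. The split was made for all 8 motifs, and others differed too. With RUNX cores the medians were 78.3% for 6 proteasome genes and 56.1% for 23 without in RUNX2, and 53.2% and 54.7% in MTA1. For YY1 letters they were 45.2% for 6 proteasome genes and 59.05% for 23 without in RUNX2, and 80.8% for 7 and 50.8% for 30 in MTA1. The YY1 medians over all genes were 52.55% and 50.5% in RUNX2 and 53.9% and 50.5% in MTA1. Over all genes CCAAT gave 59.4% and 45.55% in RUNX2, and RUNX cores 59.3% and 48.9%.

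Most factors that work with the proteasome also had peaks. Among 20 proteasome-associated factors chosen by function 17 had a RUNX2 peak, or 85%, and 19 an MTA1 peak, or 95%. The shares were 72.9% and 89.6% for the proteasome genes and 49.9% and 50.9% for all protein-coding genes. The list is not free of subunits, since it holds SEM1, which encodes a small subunit of the 19S particle. SEM1 had no peak of either library. AKIRIN2, which brings the proteasome into the nucleus, and UBE3C, a ubiquitin ligase of the proteasome, had an MTA1 peak alone, of 23.6 and 22.4. All 4 genes that control proteasome transcription, NFE2L1, NFE2L2, DDI2 and NGLY1, had both, against 43.9% of all protein-coding genes. A count of 4 is too small to read a share from. NFE2L1 scored 53.0 in RUNX2, above 98.8% of peaks and just above PSMC4, and 34.5 in MTA1, above 96.8%. NGLY1 and DDI2, which process the NFE2L1 protein, scored 5.87 and 12.7 in RUNX2 and 15.2 and 13.6 in MTA1.

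Loci that copy the subunit genes seldom had a peak. Of 52 loci named as pseudogenes of proteasome genes, 5 had a RUNX2 peak, or 9.62%, and 4 an MTA1 peak, or 7.69%, near the 6.00% and 4.08% of the 16845 pseudogenes of the annotation. The strongest of these was at PSMD10P1, at 12.8 in RUNX2, above 76.4% of peaks. Of 7 antisense or divergent loci named for proteasome genes, PSMA3-AS1, PSMD3-AS1 and PSMG3-AS1 had peaks of both libraries, or 42.9%. The share over all antisense or divergent loci is not given here, and a count of 7 is too small to read a share from. PSMD3-AS1 scored 48.7 in RUNX2 and 21.6 in MTA1, and the peaks of PSMG3-AS1 had the scores of those at PSMG3.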

How the data were processed

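The study profiled MDA-MB-231 cells by CUT&Tag, with 1 library for RUNX2 and 1 for MTA1. The suppliers given for the antibodies differ between the labels and the study's methods, and the labels describe end repair and adaptor ligation, unusual for CUT&Tag. The submitters' processing notes name CASAVA 1.4, Bowtie 0.12.8, MACS, MACS2 and hg19, without their roles, and give no control library. For each library the authors deposited a list of the peaks called in it, giving position, name and score, and did not state the scale of the score. The narrowest peaks, 99 bp wide in RUNX2 and 116 bp in MTA1, numbered 19552 and 11080. Peaks on mitochondrial DNA were left out, leaving 61700 and 42683.

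A gene was counted as having a peak when at least 1 bp of a peak fell within 1 kb of either end, and its strongest peak was ranked by score. Positions are printed 1-based as listed. Starts and promoters came from RefSeq GRCh38.p14, and the coordinates of promoters are of that build. Starts were found for 42 of 48 genes. Shares carry exact (Clopper-Pearson) 95% intervals. The counting steps were tested on simulated data. The genes, classes, related genes, motifs and alternatives were chosen with earlier results of these data known. Named with values were the 3 genes of each class ranked highest over both libraries, the 3 highest and 3 lowest in each library, genes with a peak of 1 library or none, and genes that share an end with another gene, and the further genes named were added after their values were seen. A further list of related genes is not reported here. Alternatives were other windows, peak centres, starts alone, score minimums, wider peaks, a stricter overlap and gene lists without a few members. Values were computed in Python 3.11.15 (pandas 2.3.3, numpy 2.4.6), intervals with scipy 1.17.1 and figures with matplotlib 3.10.9.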

Additional observations from a re-analysis of the deposited data

How the results depend on the processing

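No paired analysis was possible because each antibody has 1 library and no result comes from a test. The shares of proteasome genes with a RUNX2 peak, an MTA1 peak or both were above those of all protein-coding genes in all 27 values from alternatives. Each alternative was counted once for each of these shares, and 22 of the values stayed within the interval of the main share. When peaks below the median score were left out, 52.1% of proteasome genes had a RUNX2 peak (37.2% of all genes) and 50% had both (31.4%). With only the 10000 best-scoring peaks of a list, the shares were 25.0% for RUNX2 (14.5%), 45.8% for MTA1 (24.6%) and 20.8% for both (12.2%). Median ranks among genes were above 50% in 17 of 18 values, with each alternative counted once for each library. The exception was MTA1 without the peaks below the median score, at 48.7%. Among genes with both, overlapping peaks were at 100% with a window of 500 bp (32 of 32, against 96.8% of all genes). With the 10000 best-scoring peaks they were at 100% as well (10 of 10, against 98.3%). Without the peaks below the median score they were at 91.7% (22 of 24, against 98.1% of all genes). When the overlap had to cover 50% of each peak they were at 70.6% (24 of 34), against 76.4% of all genes. Each alternative of score keeps fewer peaks and so lowers both shares by construction. The depth of the libraries is unknown, and single libraries allow no estimate of the spread between replicates.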
